A study of Mus musculus with 66 samples.

Results

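Transcript levels of 10 genes of astrocytes, the star-shaped glia of the brain and spinal cord, were followed through every library of a study of mice with mutations of Rorb. The genes are Etnppl, Fabp7, Slc1a2, Slc1a3, Gfap, Aqp4, Gja1, Gjb6, Aldh1l1 and S100b, 10 of the 45706 gene identifiers measured, and each symbol matched a single identifier. They were listed as astrocyte genes by name, and the list was drawn up with earlier results of these data known. The list was chosen by a lower Etnppl and a higher Fabp7 level in the cerebellum of Rorb h5/h5 mice, so values from that comparison are described below without a test.

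The series held 66 mRNA libraries in 20 groups of 3 or 4 mice. Rorb encodes an orphan nuclear receptor of the ROR family. Mice homozygous for a spontaneous mutation were compared with wild-type mice: Rorb h1/h1 on C57BL/6J (a duplication that takes in the first exon of Rorb1 and sequence upstream), Rorb h2/h2 and Rorb h3/h3 on an albino substrain of C57BL/6J carrying Tyr c-2J, and Rorb h4/h4 (a premature stop codon in Rorb) on the B6.129S7-Il1r1tm1/mx/J background, all against C57BL/6J, and Rorb h5/h5 on DBA/1J (loss of the start codon of the Rorb1 isoform) against DBA/1J. Brain hemi-sections and spinal cords came from the same 24 mice, 7.9 to 9.6 weeks old, and cortex, hippocampus and cerebellum came from another 6 mice, 3 Rorb h5/h5 and 3 DBA/1J, 7 weeks old. The controls of h2, h3 and h4 were plain C57BL/6J mice, so the part of these backgrounds and that of the Rorb allele cannot be told apart. Each mutant is a single line.

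Astrocytes clear glutamate and potassium from around synapses, pass ions and metabolites to each other through gap junctions, hold water channels on their endfeet at blood vessels, and supply neurons with lipids and other metabolites. They differ between regions of the central nervous system, and in injury or disease they take on a reactive state marked by more of the filament protein GFAP. In the cerebellum the Bergmann glia, which line up along the Purkinje cells, are the specialised astrocytes. In RNA from whole tissue, fewer astrocytes and less RNA of a gene per astrocyte cannot be told apart for any 1 gene.

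ROR receptors bind DNA as monomers at the letters AGGTCA preceded by an A/T-rich stretch. The RefSeq promoter windows of GRCm38.p6 (250 bases before to 50 bases after a transcript start) were therefore searched for AGGTCA on either strand, read as AGGTCA or TGACCT. The A/T-rich stretch was not part of the search, so a match is not by itself a ROR site. Windows were found for 9 of the 10 genes, and Etnppl had 2. The letters occurred in windows of Etnppl, Fabp7, Gfap, Aldh1l1 and Slc1a2, and in 16.3% of all 32851 windows (5340). No window of these genes held CACGTG, the clock E-box, which is in 7.15% of all windows, or TATAAA on the sense strand, which is in 8.32%. The windows given here, with the match in capitals, are those of the 2 genes whose values in the h5 cerebellum led to the list, and that of Gjb6, a gap junction gene that fell in h2, h3 and h4 spinal cord and whose window held no match. In GRCm38.p6 Etnppl lies at chr3:130617448-130635750, Fabp7 at chr10:57784923-57788450 and Gjb6 at chr14:57123301-57133611. For Etnppl the window at chr3:130617325-130617624 (plus strand) is given, where the match starts 9 bases after the start, while the window of its other start at chr3:130617198-130617497 held none. The Fabp7 window is chr10:57784673-57784972 (plus strand), with the match 171 bases before the start, and the Gjb6 window is chr14:57133562-57133861 (minus strand).
Etnppl: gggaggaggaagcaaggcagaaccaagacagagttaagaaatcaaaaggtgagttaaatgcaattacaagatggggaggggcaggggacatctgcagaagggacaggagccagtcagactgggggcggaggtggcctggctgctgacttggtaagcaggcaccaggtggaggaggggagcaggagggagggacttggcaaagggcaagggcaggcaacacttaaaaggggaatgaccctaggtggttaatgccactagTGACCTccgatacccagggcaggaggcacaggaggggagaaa
Fabp7: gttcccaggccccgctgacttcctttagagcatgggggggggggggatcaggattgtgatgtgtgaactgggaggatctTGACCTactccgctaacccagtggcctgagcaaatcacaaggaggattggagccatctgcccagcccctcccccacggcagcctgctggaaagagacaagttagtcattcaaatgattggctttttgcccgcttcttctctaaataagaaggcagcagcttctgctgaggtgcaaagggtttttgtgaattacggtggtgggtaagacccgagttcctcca
Gjb6: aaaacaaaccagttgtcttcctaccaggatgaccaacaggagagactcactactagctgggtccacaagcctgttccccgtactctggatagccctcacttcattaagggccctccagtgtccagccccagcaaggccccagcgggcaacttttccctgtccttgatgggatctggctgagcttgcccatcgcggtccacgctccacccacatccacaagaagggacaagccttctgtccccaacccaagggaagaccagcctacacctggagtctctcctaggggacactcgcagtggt

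Library totals ran from 32889755 to 59120536 estimated fragments, with a median of 42391893. Rorb itself, as the check of the labels, averaged 55.3 ± 5.44 CPM (counts scaled to library size; SD, n = 3) in C57BL/6J brain, 36.2 ± 1.23 in h1 (n = 3), 29.4 ± 1.46 in h2 (n = 4), 53.3 ± 2.21 in h3 (n = 4) and 12.7 ± 1.81 in h4 (n = 4). It was 58.6 ± 8.01 CPM in DBA/1J and 76.6 ± 4.36 CPM in h5 brain (n = 3 each), and h5 was above DBA/1J in mean in all 5 tissues. These CPM values are scaled by TMM factors over all 66 libraries. Brain replicate 1 of DBA/1J had a summed level of 6 cerebellar markers of 132 CPM, against 723 and 738 in the other DBA/1J brains and 777 to 885 in the h5 brains. Spinal cord replicate 3 of h5 had a summed level of 5 meningeal markers of 332 CPM, against 52.4 and 67.7 in the other h5 cords. The 3 libraries of the dissected h5 mouse of replicate 3 were labelled female and held Y-linked transcripts.

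On the scale that allows genes to be compared, TPM (abundance per transcript length), Slc1a2 was the most abundant of the 10 genes in brain. It encodes the main glutamate transporter of forebrain astrocytes, and in C57BL/6J brain it averaged 671 ± 24.1 TPM (SD, n = 3). Slc1a3, the second glutamate transporter and the main one of Bergmann glia, averaged 297 ± 13.1 TPM (SD, n = 3). S100b, a calcium-binding protein, followed at 209 ± 23.04 TPM (SD, n = 3), and Gfap, the intermediate filament protein, at 154 ± 15.9 TPM (SD, n = 3). Gja1, at 143 ± 2.16 TPM (SD, n = 3), and Gjb6, at 93.2 ± 2.43 TPM (SD, n = 3), encode the connexins of astrocyte gap junctions. Aqp4, the water channel of the endfeet, and Fabp7, a fatty acid carrier of radial glia and astrocytes, had means of 116 ± 8.55 TPM (SD, n = 3) and 115 ± 5.16 TPM (SD, n = 3), which differ by less than the spread of either. The lowest levels belonged to Aldh1l1, an enzyme of folate metabolism, at 39.7 ± 0.610 TPM (SD, n = 3), and Etnppl, the lyase that breaks down phosphoethanolamine, at 27.5 ± 6.41 TPM (SD, n = 3). In C57BL/6J spinal cord the order of levels was another: Gfap averaged 1143 ± 59.5 TPM (SD, n = 3), S100b 706 ± 15.9 TPM (SD, n = 3) and Slc1a2 592 ± 0.118 TPM (SD, n = 3), and Slc1a3 only 58.4 ± 2.26 TPM (SD, n = 3). In DBA/1J cerebellum Slc1a3 was highest at 705 ± 8.88 TPM (SD, n = 3), ahead of Slc1a2 at 259.9 ± 7.95 TPM (SD, n = 3), while Etnppl was lowest of the 9 genes detected there at 10.1 ± 0.980 TPM (SD, n = 3). In DBA/1J cortex and hippocampus Slc1a2 was highest again, at 880.4 ± 107 TPM (SD, n = 3) and 741 ± 32.7 TPM (SD, n = 3), and Etnppl lowest of the 9 detected, at 4.74 ± 1.39 TPM (SD, n = 3) and 1.85 ± 0.777 TPM (SD, n = 3).

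The genes differed in how much they varied. Within groups, the SD of the log2 CPM was 0.43 for Etnppl and 0.22 for Fabp7, and between 0.08 and 0.15 for the other 8. S100b was close to absent on DBA/1J, and its SDs cover only the 36 libraries on C57BL/6J backgrounds, with 0.98 between group means. The difference of S100b between the backgrounds is thus left out. Between group means the SD of the other genes was 1.65 for Etnppl, 1.55 for Gfap, 1.20 for Slc1a3 and 1.03 for Aqp4, and only 0.13 for Aldh1l1. Aldh1l1, often used as a general astrocyte marker, thus varied least between groups, and its TPM lay between 27.3 and 56.1 over all 66 libraries. Across the 36 libraries on C57BL/6J backgrounds, the deviations from group means of Gfap and S100b had a Pearson correlation of 0.83, those of Gja1 and Aqp4 of 0.69 and those of Etnppl and Gjb6 of 0.68. In the 30 DBA/1J-background libraries the last 2 values were 0.54 and 0.30. Brain and cord of a mouse share that mouse, so these values describe the libraries only.

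**Figure D1:**
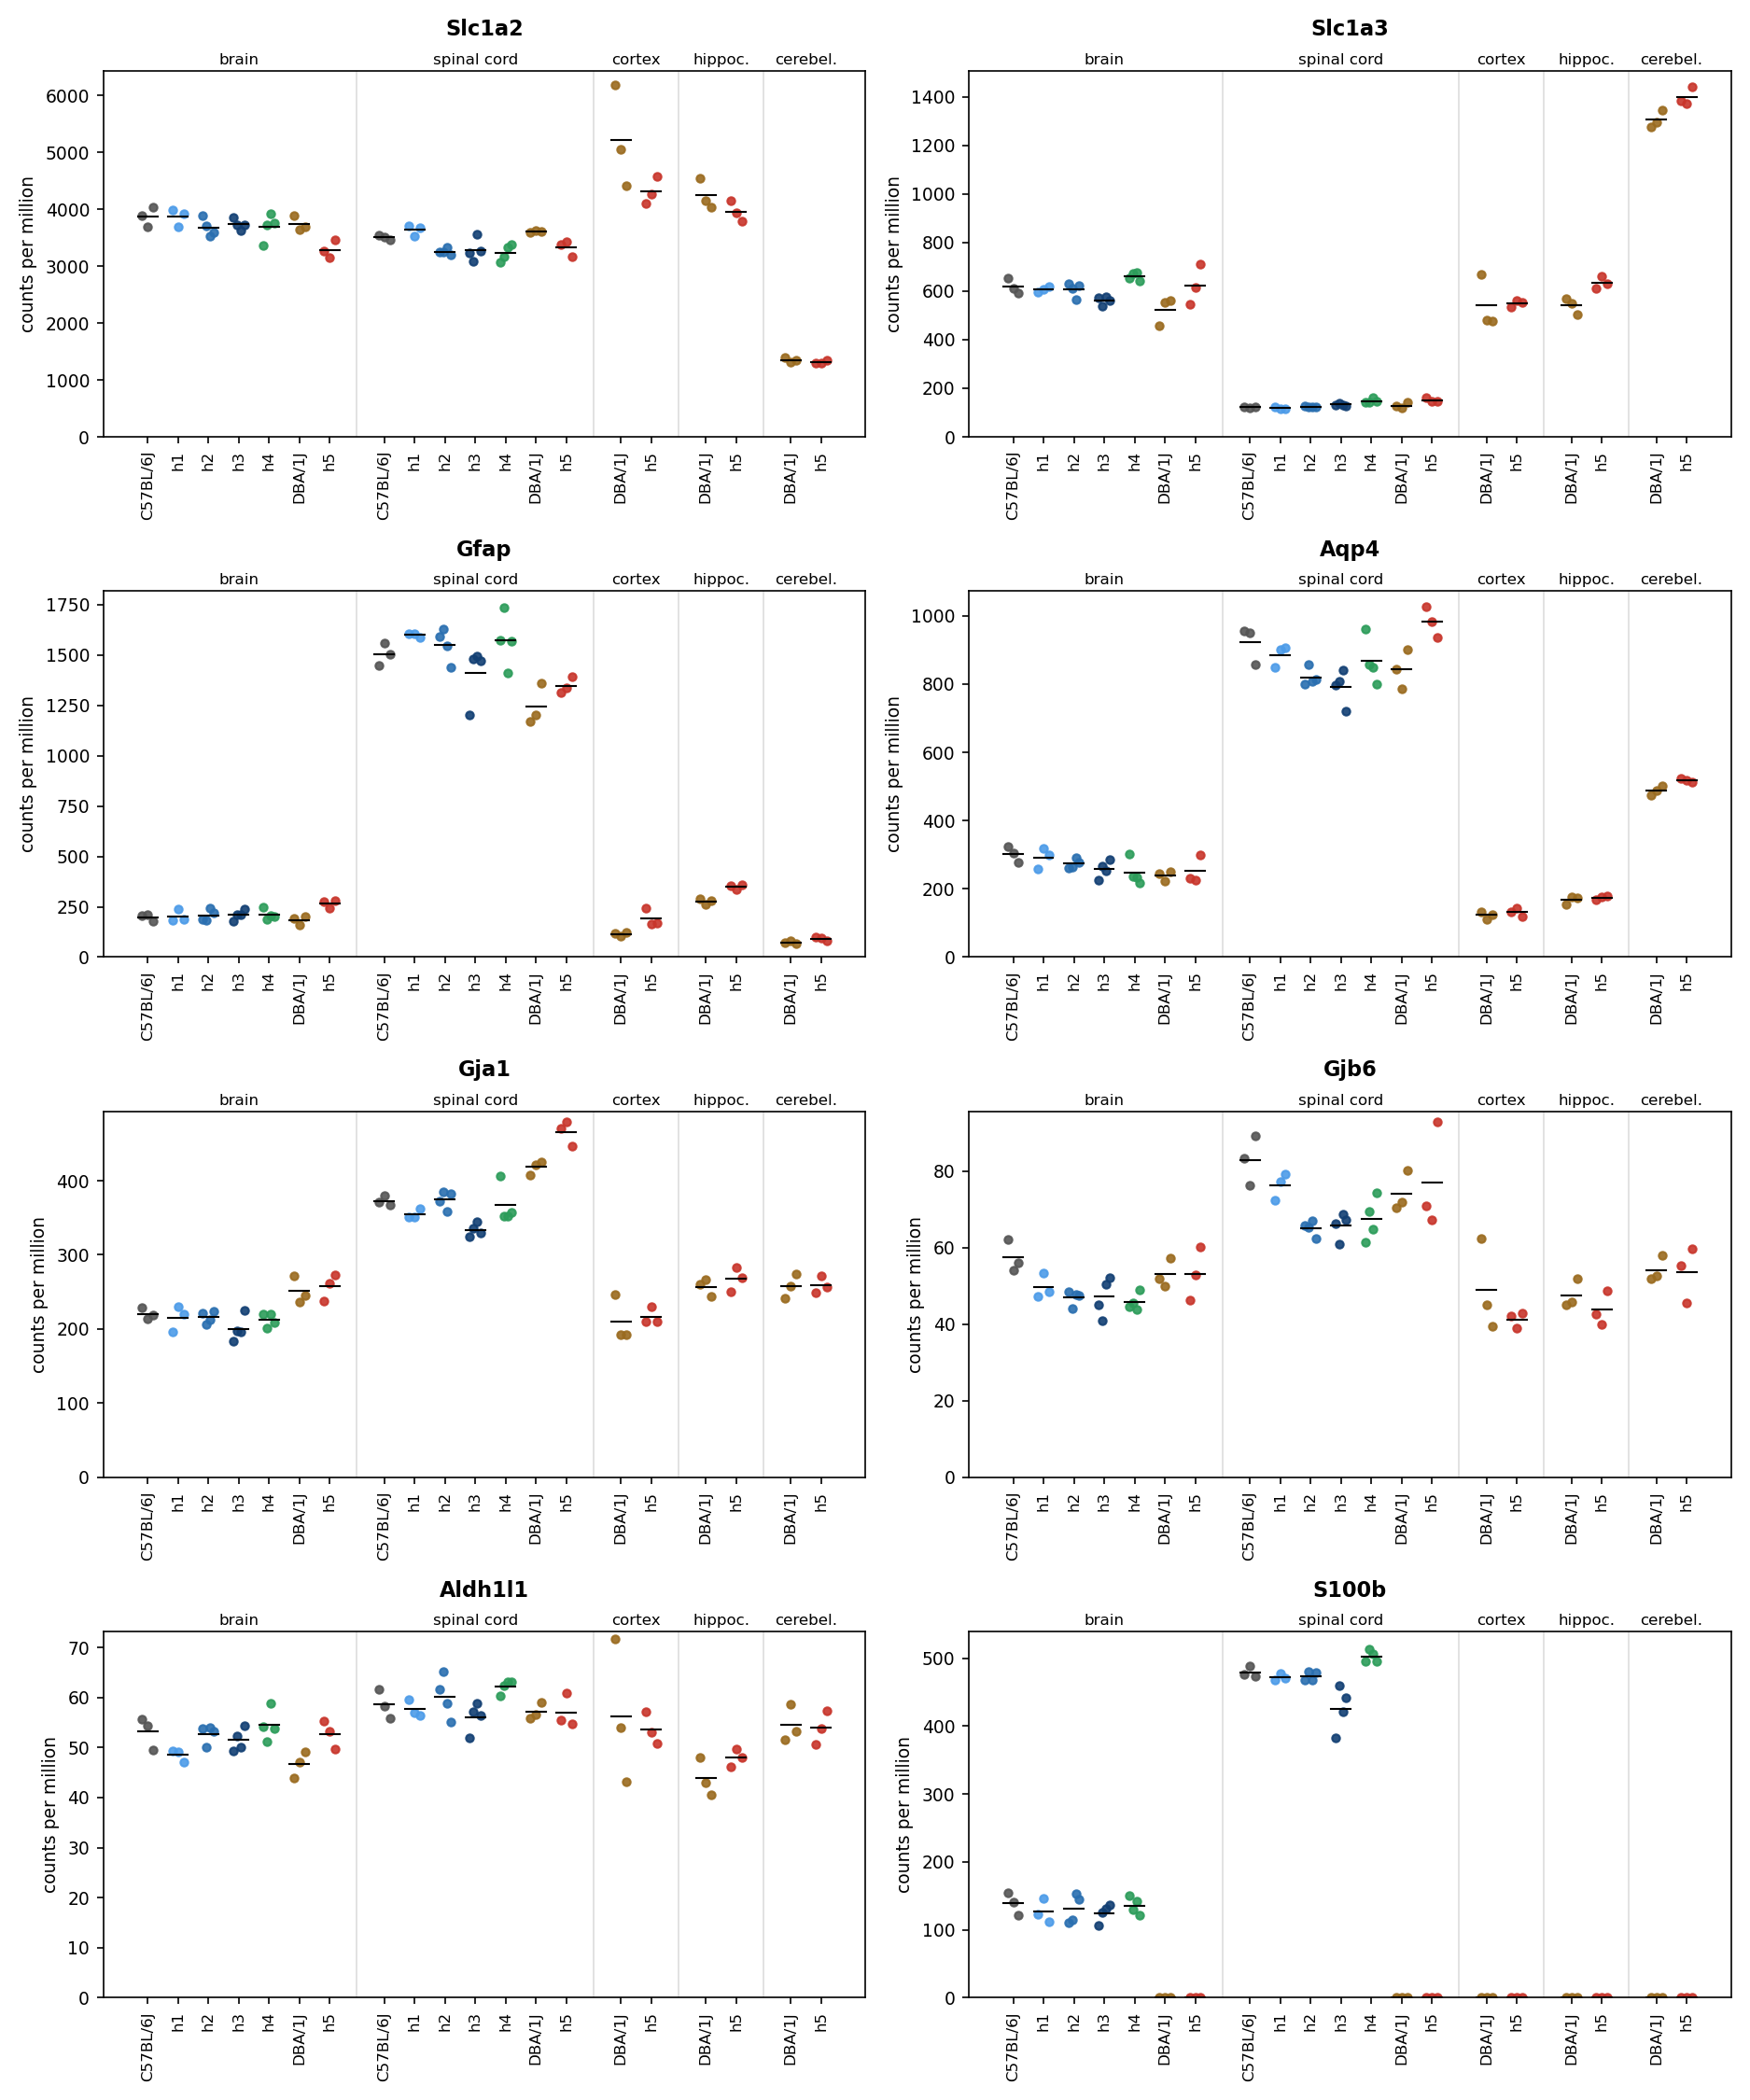
CPM of 8 of the 10 astrocyte genes in each of the 66 libraries (points), with group means (bars), by tissue (hippoc., hippocampus; cerebel., cerebellum) and genotype. Gfap, Aqp4 and S100b were highest in spinal cord, Slc1a3 was highest in cerebellum and lowest in spinal cord, Slc1a2 was lowest in cerebellum, and S100b was at or near 0 in every DBA/1J and h5 library.

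In C57BL/6J mice, 7 of the 10 genes differed between spinal cord and brain, 5 higher and 2 lower in cord, by edgeR's quasi-likelihood test at a Benjamini-Hochberg adjusted p under 0.05, where 56.9% of all genes tested differed, 28.3% higher and 28.5% lower. Gfap was at 206, 209 and 179 CPM in the 3 brains and 1446, 1557 and 1503 CPM in the 3 cords, a log2 difference of 2.92 ± 0.07 (SE; edgeR adjusted p = 2.68e-12). S100b (1.78), Aqp4 (1.61), Gja1 (0.75) and Gjb6 (0.53) were also higher in cord on the log2 scale. Slc1a3 went the other way: it read 651, 612 and 592 CPM in brain and 125, 118 and 124 CPM in cord, a log2 difference of -2.34 ± 0.06 (edgeR adjusted p = 3.18e-12). Slc1a2 differed by only -0.15 ± 0.05 (edgeR adjusted p = 0.0214, and up to 0.155 in the fits without a library, of which only that without brain replicate 2 kept the call; -0.15 and 0.106 with the mouse as a block), and Etnppl (0.12 ± 0.12) and Fabp7 (0.06 ± 0.07) did not pass the test. In DBA/1J mice 5 of 9 tested genes were higher in cord (25.3% of all genes) and 1 was lower (25.6%), with Gfap at 2.75 ± 0.09, Aqp4 at 1.81 ± 0.07 and Slc1a3 at -2.04 ± 0.09 on the log2 scale.

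Within the brain of DBA/1J mice the cerebellum stood apart. The DBA/1J cerebellum values of Etnppl and Fabp7 were part of the comparison that chose the list, so their differences from cerebellum are given as a description with no test. Of the other 7 genes measured, 2 were higher than in cortex (28.6% of all genes) and 2 lower (29.5%). Slc1a3 read 669.9, 480.3 and 477 CPM in cortex and 1275, 1296 and 1346 CPM in cerebellum, and Slc1a2 read 6189, 5052 and 4404 and 1389.5, 1316 and 1346 CPM. The glutamate transporters thus moved in opposite directions, by 1.20 ± 0.13 and -2.01 ± 0.13 on the log2 scale (edgeR adjusted p = 4.17e-05 and 9.28e-07), with no overlap between regions. Of all genes, 36.8% had every cerebellum above every cortex and 29.7% every cerebellum below. Aqp4 (1.92 ± 0.09) was also higher in cerebellum, and Gfap (-0.73 ± 0.09) was lower. The log2 differences of Etnppl and Fabp7 were 1.01 and 0.61. The hippocampus differed from cortex in 2 genes, both higher (9.78% of all genes): Gfap at 1.28 ± 0.08 and Aqp4 at 0.46 ± 0.08. Against cerebellum, 2 of the other 7 genes were higher in hippocampus (31.8% of all genes), Gfap and Slc1a2, and 3 lower (32.2%), Slc1a3, Aqp4 and Aldh1l1, while Etnppl was at -2.23 and Fabp7 at -0.59. Etnppl read lowest in hippocampus (2.67, 3.71 and 1.44 CPM), intermediate in cortex (8.56, 3.82 and 5.43 CPM) and highest in cerebellum (11.5, 10.7 and 15.4 CPM), and the difference of hippocampus from cortex was not called by edgeR with its low-count filter (adjusted p = 0.0562) but was without it (0.0247) and with DESeq2 (0.0048). The regions came from the same mice. The mouse as a block ended the Slc1a2 call between cord and brain in C57BL/6J and added Fabp7 between cord and brain in DBA/1J (-0.25, edgeR adjusted p = 0.0206) and Gja1 (0.31, 0.0402) and Aldh1l1 (-0.33, 0.0499) between hippocampus and cortex.

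**Figure D2:**
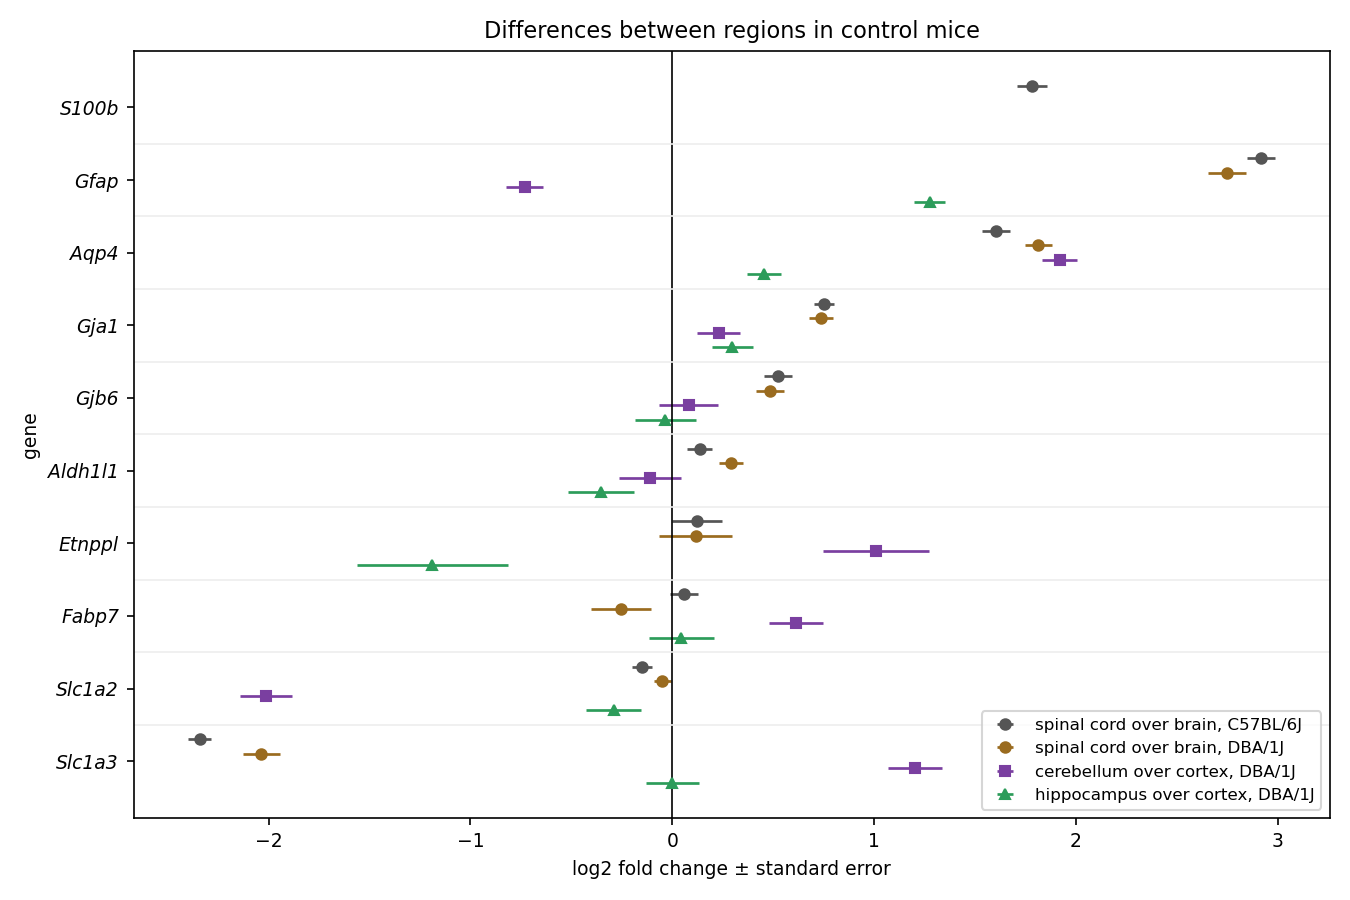
Log2 fold change (points) with its standard error (bars) between regions of control mice for the 10 astrocyte genes, for spinal cord over brain in C57BL/6J and in DBA/1J and for cerebellum and hippocampus over cortex in DBA/1J. Gfap and Slc1a3 lie at opposite ends for spinal cord, at 2.92 and -2.34 in C57BL/6J, and Slc1a3 and Slc1a2 lie on opposite sides of 0 for cerebellum.

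The inbred strains differed in some of the genes. Between the DBA/1J and C57BL/6J controls, 3 of the 10 genes differed in brain (11.2% of all genes), 0 higher (4.04%) and 3 lower (7.2%) in DBA/1J, and 4 in spinal cord, 3 lower (12.7% of all genes) and 1 higher (8.55%). Etnppl read 52.8, 39.7 and 35.6 CPM in C57BL/6J brain and 13.2, 15.1 and 17.1 in DBA/1J brain, and 49.00, 40.3 and 50.1 against 11.5, 18.4 and 19.3 in spinal cord. Its log2 difference was -1.49 ± 0.15 in brain (edgeR adjusted p = 2.22e-04) and -1.50 ± 0.15 in spinal cord (edgeR adjusted p = 9.45e-06), with no overlap in either tissue. Aqp4 was lower in DBA/1J brain (-0.33 ± 0.07, edgeR adjusted p = 0.0201; 0.0132 to 0.0742 when each library was left out in turn, above 0.05 without C57BL/6J replicate 1 or 2 or DBA/1J replicate 2, and 0.0565 with the replicate block). In spinal cord Gfap was lower (-0.27 ± 0.06, edgeR adjusted p = 0.00502) and Gja1 higher (0.17 ± 0.04, edgeR adjusted p = 0.00959), and both calls were lost with limma on log2(TPM + 1) (adjusted p = 0.128 and 0.0996). The strains also had animal identifiers of different series, which cannot be told apart from the strain.

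S100b was close to absent from every library on the DBA/1J background. The deposited counts were 0 in 28 of the 30 DBA/1J and h5 libraries and 2 in all, with no library above 0.04 TPM, whereas the 36 libraries on C57BL/6J backgrounds held 477461 counts and ranged from 157 to 770 TPM. In brain the 3 DBA/1J libraries held 0 counts against 18515 in the 3 C57BL/6J libraries, so the level was at least 5099.7-fold lower with a floor of 3 counts over the group. In spinal cord, 1 count against 65154 gave a ratio of 58945 (95% interval of the counts 10579 to 2328240). Such intervals and floors cover counting error only. Of all genes with a median of at least 10 TPM on the C57BL/6J backgrounds, 3 had at most 1 count in each of the 30 libraries: S100b, Gm43778 and an identifier without a symbol. The genes on both sides of S100b on chromosome 10 were looked at after this was seen. Prmt2, 15970 bases away, had a median of 52.1 TPM on DBA/1J and 45.0 TPM on C57BL/6J backgrounds, and Dip2a, 1714 bases away, had 44.3 and 54.2 TPM. In CPM the Dip2a medians were 53.9 and 155, a wider gap than in TPM. The DBA/1J medians of both neighbours take in cortex, hippocampus and cerebellum as well as brain and spinal cord. Those of the C57BL/6J backgrounds are from brain and spinal cord only, so strain and tissue are mixed in these values. Whether the gene was not transcribed or its reads were not assigned to it was not tested. S100b did not enter the h5 comparisons, which leaves 9 genes in them.

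The alleles h1 to h4 were each compared with the same 3 C57BL/6J mice per tissue, so their results are not independent of each other. In brain, 0 of the 10 genes were called in h1 (0.0% of all genes higher and 0.0% lower), h2 (0.0341% and 0.102%) and h3 (0.0509% and 0.113%). At an unadjusted p under 0.05 the counts were 1, 2 and 3 genes, where 4.23%, 7.45% and 10.4% of all genes were. DESeq2 called 0, 1 and 0 (0.066%, 0.343% and 0.752% of all genes). In h4 brain 2 genes were called (0.703% of all genes), of which 1 rose (0.236%) and 1 fell (0.467%). In spinal cord, h1 had 0 called genes (0.127% higher and 0.162% lower; 3 genes at an unadjusted p under 0.05, as 11.3% of all genes, and 0 by DESeq2, against 0.552%), h2 had 4 (2.09%), 1 higher (0.876%) and 3 lower (1.21%), h3 had 0 higher (0.331%) and 1 lower (0.674%) and h4 had 3 (1.75%), 2 higher (0.562%) and 1 lower (1.19%). DESeq2 called 2 genes in h4 brain (1.74% of all genes) and 4, 3 and 4 in h2, h3 and h4 cord (2.18%, 1.72% and 2.27%). The median log2 difference over the 10 genes lay between -0.09 and 0.02 in the 8 comparisons, and that over all genes was at most 0.005 in size.

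**Figure D3:**
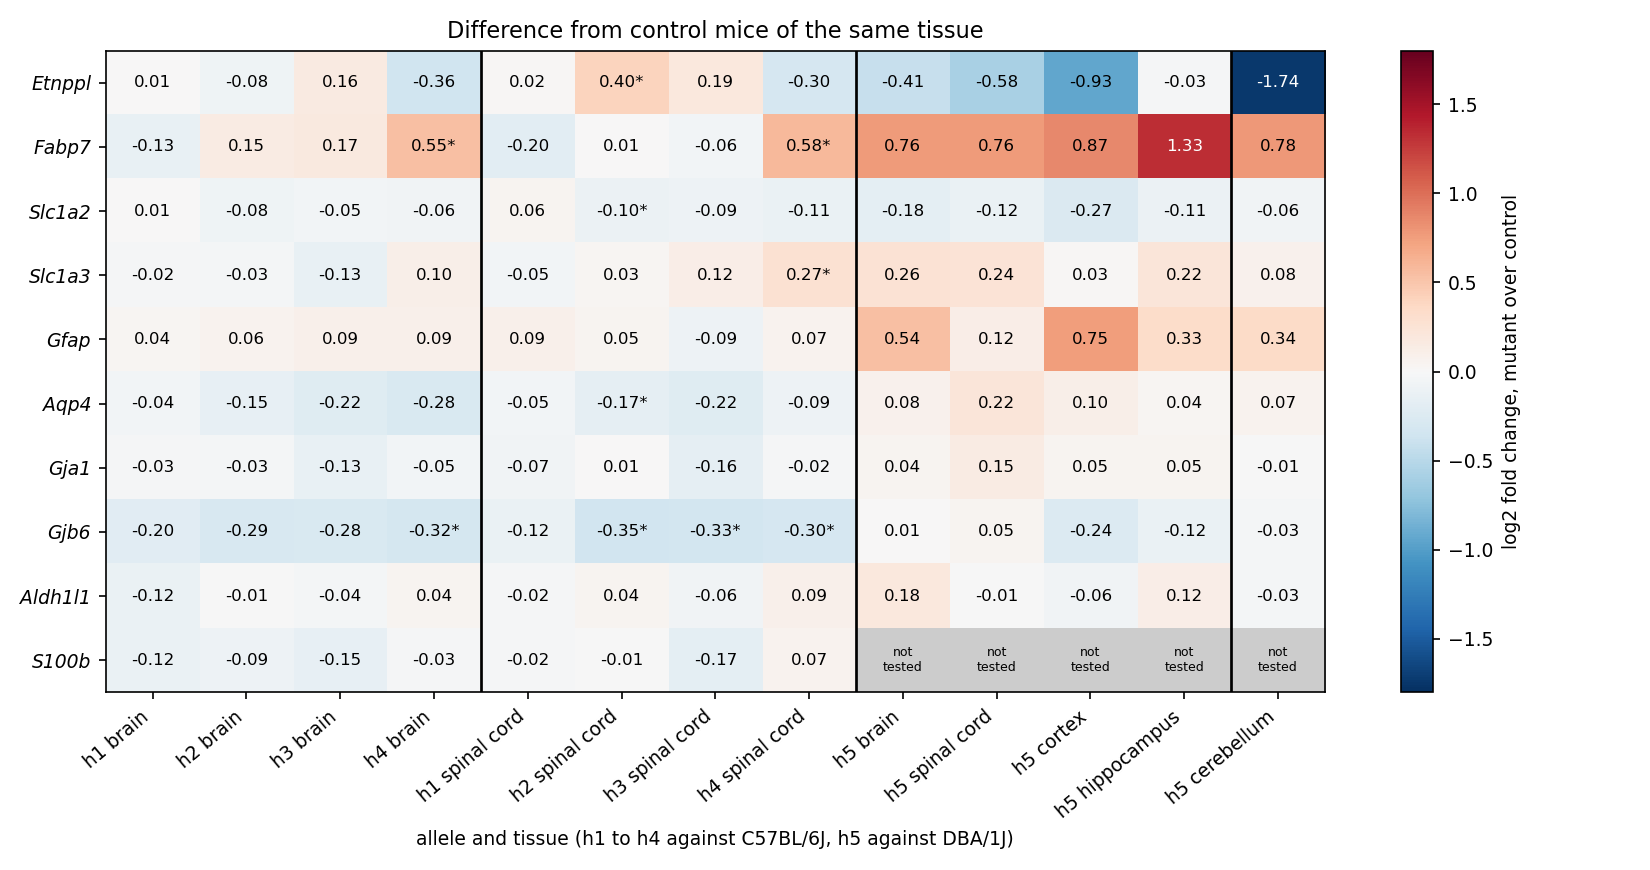
Log2 fold change of the 10 astrocyte genes (vertical axis) for each Rorb allele and tissue against its control mice (horizontal axis), in colour and as numbers. A star marks an edgeR adjusted p under 0.05. Fabp7 is starred in h4 brain and spinal cord and is 0.76 or more in each h5 tissue, Gjb6 is starred in h4 brain and in h2, h3 and h4 spinal cord, S100b was not tested on DBA/1J, and the h5 cerebellum column is a description without a test.

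Fabp7 rose in both tissues of h4 mice. In brain it read 35.3, 31.2 and 36.4 CPM in C57BL/6J and 50.8, 42.5, 57.2 and 48.96 CPM in h4, and in spinal cord 38.2, 34.6 and 34.6 and 59.4, 48.1, 49.4 and 56.3 CPM. Every h4 library was above every control library in both tissues, as were 126 of 16895 genes (0.746%). The log2 difference was 0.55 ± 0.09 in brain (edgeR adjusted p = 0.018) and 0.58 ± 0.07 in spinal cord (edgeR adjusted p = 7.03e-04). In brain the adjusted p ran from 0.00746 to 0.0871 when each library was left out in turn and was 0.0567 without C57BL/6J replicate 1 and 0.0871 without replicate 2, whereas in spinal cord it stayed under 0.05 in all 7 such fits. The brain call was lost in 1 edgeR fit per tissue and with limma on log2(TPM + 1) (adjusted p = 0.109 and 0.0564). In h1, h2 and h3 edgeR did not call Fabp7, except lower in h1 cord without the low-count filter (-0.20, adjusted p = 0.0349). In spinal cord it read 26.7, 31.7 and 34.9 CPM in h1, 41.95, 37.8, 27.01 and 36.9 in h2 and 33.8, 34.6, 34.05 and 35.3 in h3, all overlapping the controls. Compared directly, a comparison added after these values were seen, h4 cord exceeded h1 by 0.78 ± 0.08, h2 by 0.57 ± 0.10 and h3 by 0.64 ± 0.06 (edgeR adjusted p = 3.12e-04, 0.0131 and 2.79e-04), where 0.183%, 0.185% and 0.8% of all genes were higher. The call against h2 was lost without h2 replicate 2 or h4 replicate 1 or 4 (0.0601, 0.0519 and 0.0594). In brain h4 exceeded h1 by 0.68 ± 0.10 (edgeR adjusted p = 0.016, 0.073% of all genes higher, and 0.00926 to 0.0623 when each library was left out, 0.05 or more without each of the h1 replicates and h4 replicates 3 and 4), and the differences from h2 (0.40 ± 0.13) and h3 (0.38 ± 0.13) did not pass the test. The h4 mice and the control mice have identifiers of different series, so the series and the genotype cannot be told apart, also for the h4 results that follow.

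Slc1a3 rose in h4 spinal cord, from 125, 118 and 124 CPM in C57BL/6J to 143, 142, 162 and 145 CPM, by 0.27 ± 0.04 on the log2 scale (edgeR adjusted p = 0.00463). Every h4 cord was above every control cord, as in 5.9% of all genes. The call was kept in all 7 fits that left out a library and lost with limma on log2(TPM + 1) (adjusted p = 0.143). In h4 brain its level was 653, 671, 675 and 640.3 CPM against 651, 612 and 592 CPM, which overlap, a difference of 0.10 ± 0.05 that did not pass. Against the other alleles in spinal cord, h4 was higher than h1 (0.32 ± 0.05, edgeR adjusted p = 0.00392) and h2 (0.25 ± 0.04, 0.00447), but the difference from h3 (0.16 ± 0.05) did not pass. Slc1a2, the other glutamate transporter, was 3545, 3508 and 3462 CPM in control cords and 3246, 3246, 3331 and 3194 CPM in h2 cords. This small difference of -0.10 ± 0.03 (edgeR adjusted p = 0.0463) was no longer called when any of the 7 libraries was left out (adjusted p from 0.0596 to 0.286).

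Gjb6 was lower in several alleles. Gja1, the other astrocyte connexin, was not called by edgeR in h1 to h4 in the fits per comparison, and DESeq2 called it lower in h3 cord (-0.16, adjusted p = 0.00201, against 0.0751 in edgeR and 0.0395 in 1 edgeR fit per tissue). In spinal cord Gjb6 read 83.4, 76.3 and 89.1 CPM in C57BL/6J, 72.3, 77.3 and 79.3 in h1, 65.7, 65.4, 67.01 and 62.3 in h2, 66.3, 60.9, 68.6 and 67.3 in h3 and 61.5, 69.4, 64.7 and 74.3 in h4. The h2, h3 and h4 cords all lay below the control cords, as were 7.27%, 7.0% and 6.97% of all genes, and those of h1 overlapped them. Gjb6 fell by 0.35 ± 0.05 on the log2 scale in h2, by 0.33 ± 0.06 in h3 and by 0.30 ± 0.06 in h4 (edgeR adjusted p = 6.38e-04, 0.0126 and 0.0221). In brain it read 62.2, 54.1 and 56.00 CPM in C57BL/6J, 47.2, 53.4 and 48.4 in h1, 48.5, 44.2, 47.9 and 47.4 in h2, 45.1, 40.9, 50.5 and 52.2 in h3 and 44.7, 45.4, 43.7 and 49.1 in h4. Every mutant brain library was below every control brain, as were 5.57% of all genes in h1, 4.01% in h2, 6.15% in h3 and 6.99% in h4, and these 4 comparisons share the 3 controls. The h4 difference, -0.32 ± 0.06, passed the test (edgeR adjusted p = 0.0398), but not in 1 fit per tissue (0.0583). The h2 difference (-0.29 ± 0.06) did not pass with the low-count filter (edgeR adjusted p = 0.142) but did without it (0.0176) and with DESeq2 (0.0081). The h1 (-0.20 ± 0.07) and h3 (-0.28 ± 0.08) differences did not pass. Leaving out single libraries ended the call in 6 of 7 fits in h4 brain (all but the one without h4 replicate 4, edgeR adjusted p up to 0.158), in 3 of 7 in h4 cord (without C57BL/6J replicate 1 or 3 or h4 replicate 3, up to 0.127) and in 2 of 7 in h3 cord (without C57BL/6J replicate 1 or 3, up to 0.0936), and in none of 7 in h2 cord. With limma on log2(TPM + 1) the calls in h2, h3 and h4 cord were lost (adjusted p = 0.138, 0.289 and 0.0654), and in 1 edgeR fit per tissue that in h4 cord was (0.0614). The direct comparisons of h4 with h1, h2 and h3 called Gjb6 in 0 of 6 cases, with log2 differences from -0.18 to 0.05, and with the replicate block edgeR called it against h1 cord (-0.23, adjusted p = 0.0258). The length that RSEM assigned to Gjb6 differed between libraries, with a median of 1138.9 bases in C57BL/6J brain and 1378.6 in h4 brain, and the h4 brain difference was -0.69 on the log2(TPM + 1) scale, where limma did not call it (adjusted p = 0.0747).

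Etnppl was called by edgeR in h2 spinal cord. It read 56.8, 61.3, 59.4 and 67.2 CPM in h2 and 49.00, 40.3 and 50.1 CPM in C57BL/6J cords. Every h2 cord was above every control cord, as in 6.63% of all genes. Etnppl rose by 0.40 ± 0.07 (edgeR adjusted p = 0.00436, under 0.05 in all 7 fits that left out a library, but 0.142 when every group of a tissue shared 1 fit and 0.225 with limma on log2(TPM + 1)). In h2 brain it read 41.3, 35.6, 41.00 and 43.4 CPM, within the control range, and the difference of the effect between the tissues, 0.47 ± 0.12, did not pass the test (edgeR adjusted p = 0.594, but 6.23e-05 without the low-count filter). In h4, Etnppl read 27.99, 29.5, 38.4 and 36.5 CPM in brain and 35.6, 39.2, 31.6 and 44.3 CPM in cord, differences of -0.36 ± 0.14 and -0.30 ± 0.10 that did not pass the test (edgeR adjusted p = 0.295 and 0.144; without h4 replicate 4 the value in cord was -0.39 and its adjusted p 0.0365, and with no low-count filter -0.30 and 0.00259). Without single libraries the h4 brain difference ran from -0.48 to -0.17. Compared directly, h4 cord was below h2 cord, with a log2 difference of -0.70 ± 0.08 (edgeR adjusted p = 2.43e-04) and below h3 cord, with -0.49 ± 0.10 (0.0253, and up to 0.0772 without h3 replicate 3 or 4 or h4 replicate 1, 2 or 3, which lost the call), where 0.145% and 0.475% of all genes were lower. Against h1 cord the difference of -0.33 ± 0.08 did not pass (edgeR adjusted p = 0.162), though DESeq2 called it (0.00959), as did edgeR with the replicate block (0.00309).

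**Figure D4:**
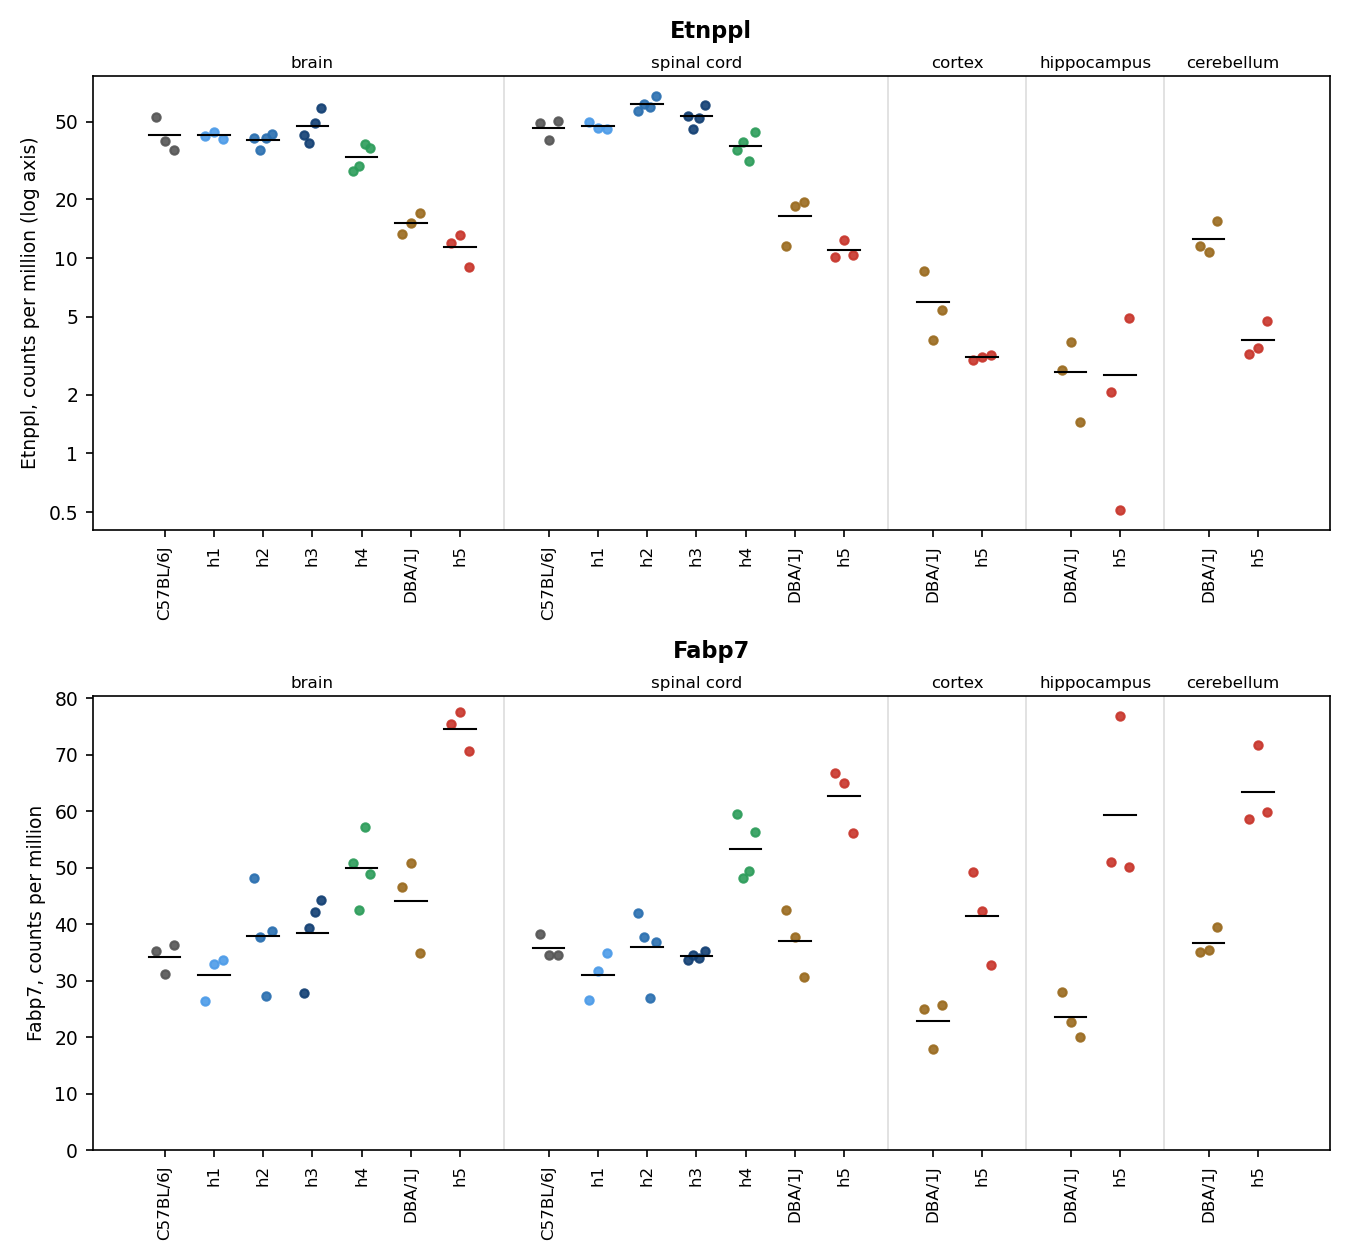
CPM of Etnppl (top, log axis) and Fabp7 (bottom) in each of the 66 libraries (points), with group means (bars), by tissue and genotype. In brain and spinal cord Etnppl is lower in every DBA/1J and h5 library than in every library of the other groups, and Fabp7 is higher in every h5 library than in every DBA/1J library of the same tissue.

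Of the other genes, Aqp4 was 955, 950.5 and 858 CPM in control cords and 801, 856, 807 and 814 CPM in h2 cords. It fell by 0.17 ± 0.04 (edgeR adjusted p = 0.0381), but the call was lost without C57BL/6J replicate 1 or 2 or h2 replicate 1, 3 or 4, with an adjusted p up to 0.249. In h3 cord Aqp4 read 796, 807, 841 and 719.6 CPM, all below the controls, as were 7.0% of all genes. The difference of -0.22 ± 0.06 was not called by edgeR (adjusted p = 0.0888), though it was without the low-count filter (0.0119) and in 1 fit per tissue (0.0402), and DESeq2 called it (0.00417). In h4 brain it differed by -0.28 ± 0.09, with overlap (edgeR adjusted p = 0.227). In the edgeR fits per comparison, Gfap, Gja1, Aldh1l1 and S100b were not called in any of the 8, with log2 differences from -0.17 for S100b in h3 cord to 0.09 for Gfap in h4 brain. Direct comparison put S100b higher in h4 than in h3 cord by 0.24 ± 0.05 (edgeR adjusted p = 0.0327, up to 0.103 without h3 replicate 3 and each of the h4 replicates, which lost it) and Slc1a3 higher in h4 than in h3 brain by 0.23 ± 0.04 (0.0318, lost without each of the h3 replicates and h4 replicates 2, 3 and 4, up to 0.222). The test of a different genotype effect in brain and spinal cord, with the mouse as a block, called 0 of the 10 genes in h1, h2, h3 and h4 and 0 of 9 in h5 (0.0% of all genes except in h4, with 0.0054% in each direction). At an unadjusted p under 0.05 those counts were 0, 1, 2, 2 and 2 (3.6%, 5.36%, 5%, 9.72% and 4% of all genes), and DESeq2 was not run for this test.

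In h5 mice the edgeR test called 0 of the 9 genes in brain (0.0% of all genes in either direction), spinal cord (0.00581%), cortex (0.0%) and hippocampus (0.0059% higher and 0.0059% lower). At an unadjusted p under 0.05 there were 6, 6, 3 and 3 genes, where 5.8%, 8.9%, 6.42% and 4.22% of all genes were. DESeq2 on the same counts called 2 genes in brain, 5 in spinal cord, 2 in cortex and 2 in hippocampus, where it called 0.255%, 0.363%, 0.235% and 0.172% of all genes. Cortex and hippocampus came from the same 6 mice as the cerebellum, and brain and spinal cord from 6 other mice.

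Fabp7 was above every control library in each of these 4 tissues. It read 46.6, 50.9 and 34.9 CPM in DBA/1J and 75.5, 77.5 and 70.6 CPM in h5 brain, and 42.6, 37.7 and 30.6 and 66.8, 65.1 and 56.1 CPM in spinal cord. In cortex the values were 25.03, 17.9 and 25.6 CPM and 49.3, 42.4 and 32.8 CPM, and in hippocampus 27.9, 22.7 and 19.98 CPM and 50.97, 76.9 and 50.1 CPM. Of 16074 genes measured in all 4 tissues, 9 (0.056%) had every h5 library above every DBA/1J library in each, Fabp7 among them. The log2 difference was 0.76 ± 0.12 in brain, 0.76 ± 0.11 in spinal cord, 0.87 ± 0.17 in cortex and 1.33 ± 0.18 in hippocampus. With edgeR and its low-count filter none was called (adjusted p = 0.234, 0.108, 0.428 and 0.197). All 4 were called with edgeR without that filter (adjusted p = 0.00407, 0.0073, 0.0416 and 0.00188) and with DESeq2 (6.64e-08, 1.82e-11, 2.36e-04 and 1.05e-04). In 1 edgeR fit per tissue brain and cord were called (adjusted p = 0.0494 and 0.00284). Within the series of animal identifiers that hold both genotypes, with 1 DBA/1J mouse and 1 or 2 h5 mice each, the difference was 1.02 and 0.71 in brain, 0.87 and 0.63 in spinal cord, 0.94 and 0.87 in cortex and 1.35 and 1.14 in hippocampus. Without the hippocampus of h5 replicate 2, which had the highest Fabp7 and a summed level of 5 choroid plexus markers of 325 CPM against 3928 and 4294 in the other h5 hippocampi, the difference was 1.11 (edgeR adjusted p = 0.0294). Without DBA/1J replicate 3 the cortex difference was 0.96 (edgeR adjusted p = 0.0371). Their part in the result was not tested further.

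Gfap, the marker of the reactive state, was above all controls in h5 brain, cortex and hippocampus. It read 194, 159.7 and 200.3 CPM in DBA/1J and 278, 244 and 282 CPM in h5 brain, 118, 106 and 122 and 244, 166 and 169 CPM in cortex, and 289.7, 263 and 279 and 356, 337 and 359 CPM in hippocampus. In spinal cord, where Gfap is far more abundant, 1168, 1202 and 1359.7 and 1312, 1338 and 1393 CPM overlapped. The log2 differences were 0.54 ± 0.09, 0.75 ± 0.15, 0.33 ± 0.06 and 0.12 ± 0.06, none of which passed edgeR with its low-count filter (adjusted p = 0.235, 0.424, 0.346 and 0.584). Without that filter edgeR called brain and cortex (adjusted p = 0.00757 and 0.0375) and DESeq2 called brain, cortex and hippocampus (1.49e-06, 1.28e-04 and 1.03e-04). The summed level of 5 meningeal markers was also above all controls in h5 brain (90.8, 90.3 and 98.1 CPM against 76.7, 61.3 and 80.4), in h5 cortex (86.4, 79.1 and 69.2 against 46.8, 51.1 and 53.9) and in h5 cerebellum (111, 114.5 and 112 against 102, 107.9 and 103). It overlapped in hippocampus, and its part in the Gfap and Fabp7 values was not tested. Without cortex replicate 3 of DBA/1J the cortex difference was 0.80 (edgeR adjusted p = 0.0458). The share of all genes with every h5 library above every DBA/1J library was 5.09% in brain, 5.56% in cortex and 5.09% in hippocampus. Without brain replicate 1 of DBA/1J, the library with few cerebellar markers, the brain difference was 0.58 for Gfap and 0.80 for Fabp7.

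Etnppl was below all controls in h5 brain and cortex, as were 6.66% and 6.53% of all genes, and overlapped them in spinal cord and hippocampus. It read 13.2, 15.1 and 17.1 CPM in DBA/1J and 11.97, 13.1 and 8.97 CPM in h5 brain, and 8.56, 3.82 and 5.43 and 2.99, 3.13 and 3.19 CPM in cortex. In spinal cord it was 11.5, 18.4 and 19.3 and 10.1, 12.4 and 10.3 CPM, and in hippocampus 2.67, 3.71 and 1.44 and 2.07, 0.514 and 4.94 CPM. The log2 differences were -0.41 ± 0.15, -0.93 ± 0.26, -0.58 ± 0.18 and -0.03 ± 0.64, and edgeR passed none (adjusted p = 0.762, 0.753, 0.501 and 0.999), while DESeq2 called the cord (adjusted p = 0.0462). Between animal series the values were uneven: -0.92 and -0.08 in brain, -0.90 and -0.04 in spinal cord, -0.85 and -0.26 in cortex and 0.51 and 0.41 in hippocampus. Without h5 replicate 2, the library low in choroid plexus markers, the hippocampal difference was 0.45. Fits without single libraries gave -0.53 to -0.26 in brain, -1.17 to -0.57 in cortex and -0.79 to -0.45 in spinal cord.

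Of the other genes of h5 mice, DESeq2 called Aqp4 (0.22), Gja1 (0.15) and Slc1a3 (0.24 on the log2 scale) in spinal cord (adjusted p = 0.00173, 0.0118 and 0.0171), where edgeR gave adjusted p of 0.425, 0.425 and 0.451. In all 3 genes the h5 cords lay above the DBA/1J cords, as in 6.8% of all genes, at 1027, 982 and 938 against 842, 785 and 901 CPM for Aqp4. Replicate 3 of h5 cord, high in meningeal markers, had the lowest Aqp4 of the 3. Slc1a2 was below all controls in h5 brain (-0.18 ± 0.05, as 6.66% of all genes) and spinal cord (-0.12 ± 0.04, 7.62%). Aldh1l1 was above them in brain (0.18 ± 0.07, 5.09%) and Slc1a3 in hippocampus (0.22 ± 0.07, 5.09%). By animal series the Slc1a2 differences in brain were -0.09 and -0.28. Slc1a2 was lower in cerebellum than in cortex, and DBA/1J brain replicate 1 held few cerebellar markers. The part of that library in the Slc1a2 difference was not tested. Gjb6 was not separated from controls in any of the 4 tissues, with differences of -0.24 to 0.05.

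The h5 cerebellum, whose values led to the list, showed Etnppl at 11.5, 10.7 and 15.4 CPM in DBA/1J and 3.21, 3.45 and 4.79 CPM in h5 mice. Fabp7 was at 35.00, 35.5 and 39.5 CPM and 58.6, 71.8 and 59.8 CPM. The log2 differences were -1.74 and 0.78, with no overlap of groups in either gene. Of all genes, 6.92% had every h5 cerebellum above and 4.7% every h5 cerebellum below every control, and 0.012% of genes were called, 0.006% in each direction. By animal series the differences were -2.25 and -1.15 for Etnppl and 0.57 and 0.75 for Fabp7. Of the other 7 genes with counts there, Gfap (0.34), Slc1a3 (0.08) and Aqp4 (0.07) were above all controls, and Slc1a2 (-0.06), Aldh1l1 (-0.03), Gja1 (-0.01) and Gjb6 (-0.03) overlapped them. Slc1a3 marks Bergmann glia as well, and its values of 1275, 1296 and 1346 CPM in DBA/1J and 1384, 1369.5 and 1440.5 CPM in h5 lay close together. The summed choroid plexus markers were 2395 to 3278 CPM in DBA/1J and 168, 1279 and 1870 CPM in h5 cerebella, and their part in these values was not tested.

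A further 30 astrocyte genes were examined. Glul, the enzyme that turns glutamate into glutamine, fell in h4 brain (-0.39 ± 0.06, edgeR adjusted p = 0.0175) and in h2, h3 and h4 spinal cord (-0.23 ± 0.03, -0.25 ± 0.04 and -0.23 ± 0.05), against the same C57BL/6J controls. In h4 brain, with 0.236% of all genes higher and 0.467% lower, 1 of the 30 rose, Mfge8 (0.50 ± 0.06), a secreted factor for engulfment, and 2 fell, Glul and the receptor gene Ntsr2 (-0.35 ± 0.06). In h3 cord, with 0.331% of all genes higher and 0.674% lower, Atp1b2 (-0.22 ± 0.04) fell with Glul, in h2 cord (0.876% higher and 1.21% lower) Fgfr2 rose (0.14 ± 0.03) and Glul fell, and in h4 cord (0.562% higher and 1.19% lower) Ntsr2 (-0.18 ± 0.04) and Glul fell. None of the 30 were called in h1, h2 or h3 brain, h1 cord or the h5 tissues tested. An unadjusted p under 0.05 was reached by 0, 2, 6 and 4 of them in h1, h2 and h3 brain and h1 cord (4.23%, 7.45%, 10.4% and 11.3% of all genes). In h5 brain, cord, cortex and hippocampus it was reached by 9, 7, 10 and 10 (5.8%, 8.9%, 6.42% and 4.22% of all genes). The median of the 30 was -0.24 in h5 cortex, from Slc15a2 (-0.66 ± 0.13) to Agt (0.50 ± 0.36), and 0.016 in brain, -0.004 in spinal cord and 0.011 in hippocampus. A single DBA/1J cortex read highest in Slc1a2, Slc1a3 and Etnppl, and its part in the cortex median was not tested.

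Among 24 genes of reactive astrocytes, Serpina3n, a protease inhibitor, rose in h4 brain (0.58 ± 0.08, edgeR adjusted p = 0.00728), h4 cord (0.42 ± 0.05, 8.48e-04) and h3 cord (0.36 ± 0.06, 0.0113). In h3 cord the chemokine Cxcl10 (2.43 ± 0.29) and the class I gene H2-D1 (0.45 ± 0.07) rose with it, 3 of 22 tested (0.331% of all genes higher), and in h2 cord complement C3 (0.50 ± 0.04) and the filament gene Vim (0.18 ± 0.04) rose, 2 of 23 (0.876%). Hspb1, a heat shock protein, fell in h4 brain (-0.75 ± 0.14). In h5 brain, cord, cortex and hippocampus 0 of the 21 to 23 tested were called, with 4, 2, 5 and 6 at an unadjusted p under 0.05 (5.8%, 8.9%, 6.42% and 4.22% of all genes). The list medians there were -0.001, -0.003, -0.06 and -0.18. In h5 cortex Serpina3n had the highest value of the list (0.76 ± 0.11) and Aspg the lowest (-0.53 ± 0.21).

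Of 10 genes of Bergmann glia, with 2.09%, 1.01% and 1.75% of all genes called in h2, h3 and h4 cord, Dao, which degrades D-serine, rose in h4 cord (0.50 ± 0.06, edgeR adjusted p = 9.73e-04), A2m fell in h3 and h4 cord (-0.24 ± 0.04 and -0.31 ± 0.06) and Itih3 rose in h2 cord (0.36 ± 0.04). The cord values are not values of Bergmann glia, which lie in the cerebellum, and h1 to h4 had no cerebellum libraries. In the h5 cerebellum, given as a description, the median of these 10 genes was 0.04, from Dao at -0.10 to Wif1 at 2.03. Of 15 clock genes, 3 were called in h2 cord (2.09% of all genes called), Dbp (0.51 ± 0.07), Tef (0.13 ± 0.03) and Npas2 (-0.60 ± 0.08), and 2 in h4 cord (1.75%), Npas2 (-0.77 ± 0.09) and Hlf (-0.26 ± 0.04). None were called in the other mutant comparisons tested. Whether the hour at which tissue was taken plays a part was not tested. Of the markers of other cells, in h4 cord, where 1.75% of all genes were called, 1 of 6 neuronal (Syt1), 1 of 5 endothelial (Ly6c1) and 1 of 4 tested meningeal markers (Col1a2) were called, and 0 of 6 oligodendrocyte and 0 of 5 microglial markers. In h2 cord (2.09% of all genes called) Syt1 (-0.13 ± 0.03), Ly6c1 (-0.28 ± 0.06) and Col1a2 (0.28 ± 0.07) were called too. The summed meningeal markers were 63.9, 69.5, 63.2 and 62.6 CPM in h4 cords and 54.6, 50.2 and 51.4 CPM in C57BL/6J cords. Ly6c1 was also lower in h3 cord (-0.31 ± 0.07) and h4 brain (-0.46 ± 0.07), and the part of these markers in the results was not tested.

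Between strains, where 4.04% of all genes were higher and 7.2% lower in DBA/1J brain and 8.55% and 12.7% in DBA/1J cord, the lists were counted in the same way. In DBA/1J brain 6 of the 30 further astrocyte genes were lower and 0 higher, and in spinal cord 15 were lower and 3 higher. Glul had a log2 difference of -1.04 ± 0.07 in brain and -1.02 ± 0.04 in cord (edgeR adjusted p = 7.81e-06 and 1.69e-09), and Cbs, which makes cystathionine, of -0.87 ± 0.11 and -0.88 ± 0.08. Of the reactive genes, 4 were higher and 1 lower of 22 tested in brain and 6 higher and 1 lower of 23 in cord, among them Serpina3n (1.42 ± 0.09 and 0.88 ± 0.05). Gfap was lower in cord.

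Over the 20 group means, the genes most like Etnppl in log2 CPM were Irgm2 (Pearson r = 0.96), D8Ertd738e (0.95), Sclt1 (0.94), Anxa3 (0.94) and Zfp953 (0.94), out of 14663 genes compared. S100b was the nearest of the other 9, at 0.87, and both are lower in the 10 groups on DBA/1J than in the 10 on C57BL/6J backgrounds. The genes most like Fabp7 were Emp2 (0.84), Ppie (0.68), Gid8 (0.64), Rnf113a1 (0.64) and Ebpl (0.60). No other gene of the 10 was near Fabp7, whose highest value was 0.19 with Gja1, and Etnppl and Fabp7 stood at -0.17 to each other. Groups share mice and backgrounds, so these values describe the groups only.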

How the data were processed

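Poly(A) RNA of 66 mouse tissue samples was sequenced as paired ends. According to the study's methods and the submitters' processing notes, reads were trimmed with Trim Galore, checked with FastQC, aligned to GRCm38 with STAR 2.7 and quantified with RSEM 1.3 in nf-core 3.5. The authors deposited RSEM expected counts and TPM per Ensembl gene for each library, replicates not pooled, and 5.07% of the expected counts were not whole. RSEM divides reads shared by similar or overlapping genes, and the strand setting is not given in the sources used here.

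Expected counts were rounded and fitted per comparison on the libraries of its groups with edgeR 4.0.16 in R 4.3.3 (filterByExpr, TMM factors, quasi-likelihood test, Benjamini-Hochberg adjustment over all genes tested, threshold 0.05). The deposited TPM served to compare levels between genes. Alternatives were DESeq2 1.42.0, DESeq2 size factors, no low-count filter, a replicate block, 1 fit per tissue, sex as a covariate, limma 3.58.1 on log2(TPM + 1) and leaving out each library. CPM use TMM factors over all libraries. Replicates are separate mice and p-values measure the spread between them. No pair of the 78 replicate pairs was identical. The genes, the lists and the comparisons were chosen with earlier results of these data known. The rule for naming was all 10 genes, up to 4 called genes per further list and comparison with the smallest p, the ends of a list's range where none was called, and the 5 genes most like Etnppl and Fabp7 among genes of at least 1 CPM. The edgeR calculation was tested on simulated data. Some list genes are not reported here.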

Additional observations from a re-analysis of the deposited data

Results flagged for a closer look

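In 5 of 60 sets of 4 libraries of 1 gene and group, a single library lay far from the other 3, where chance alone gives about 1 set in 20. Gfap read 1203 CPM in h3 spinal cord replicate 1 and 1474 to 1495 CPM in the other 3. Gja1 read 407 CPM in h4 spinal cord replicate 1 against 352 to 357 CPM. Slc1a3 read 162 CPM in h4 spinal cord replicate 3 against 142 to 145 CPM, and its call there was kept in all 7 fits that left out a library. Slc1a3 in h2 spinal cord replicate 1 (126 CPM, others 124 CPM) and Aldh1l1 in h2 brain replicate 2 (49.97 CPM, others 53.3 to 53.9 CPM) were closer in size.

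In h3 mice every brain was below and every spinal cord above its C57BL/6J controls in Slc1a3, with log2 differences of -0.13 and 0.12. Of all genes, 6.15% were below in this way in h3 brain and 6.12% above in h3 cord. Neither difference was called by edgeR (adjusted p = 0.419 for h3 brain and 0.217 for h3 cord). The edgeR test of the difference between the tissues gave 0.26 ± 0.07 (SE) with a Benjamini-Hochberg adjusted p of 0.804, so it was not called.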

How the results depend on the processing

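Of 1130 alternative values for 91 single-gene results, 992 were counted as unchanged, 86 lost and 25 gained the call, 8 moved and 19 changed sign. For tested results unchanged means the same direction and side of the threshold. For the h5 cerebellum genes, which had no test, it means a value within the within-group SD of the main one. Values beyond that moved, and changes of sign were not counted there. The 2 calls in h1 to h4 brain became 0 in 1 fit per tissue and 0 on log2(TPM + 1) with limma, and were 0 to 2 without single libraries. The 8 calls in spinal cord became 1 on log2(TPM + 1), 11 with DESeq2 and 4 to 9 without single libraries, and 1 fit per tissue gave 6, of which 4 were among the 8. The 0 calls in h5 became 11 with DESeq2, 6 without the low-count filter, 2 in 1 fit per tissue and 0 to 2 without single libraries. The 0 calls for the difference between tissues became 2 without the filter (Etnppl in h2 and Slc1a3 in h3) and 0 to 1 without single mice. In all these the cause was not tested.

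Same-numbered replicates did not come from the same mouse in the genotype comparisons, and every pair correlated above 0.1 only in h1 brain (0.11, 0.12 and 0.20). With the replicate block the calls were 2 in brain, 6 in spinal cord, 1 in h5 (Fabp7 in cord, adjusted p = 0.0018 by edgeR with Benjamini-Hochberg adjustment) and 7 between strains (Aqp4 in brain lost, adjusted p = 0.0565, and Gjb6 in cord gained, 0.0391), and Fabp7 in h2 cord turned from 0.01 to -0.020. Within animal series the h5 cerebellum values were -2.25 and -1.15 for Etnppl and 0.57 and 0.75 for Fabp7.

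Values near 0 changed sign: Etnppl in h1 brain (-0.0016 without the filter, -0.023 on log2(TPM + 1), -0.11 to 0.19 without single libraries), in h2 brain (-0.20 to 0.11), in h1 cord (-0.040 on log2(TPM + 1), -0.062 to 0.083) and in h5 hippocampus (-1.01 to 0.45), and Fabp7 in h2 cord (-0.072 to 0.12). In h5 cerebellum, where signs were not counted, fits without single libraries gave -0.069 to 0.027 for Aldh1l1, -0.049 to 0.046 for Gja1 and -0.11 to 0.064 for Gjb6. Groups of 3 or 4 mice and the low Etnppl level in hippocampus limit precision.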
